A study of Mus musculus with 19 samples.

Results

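The genes described here are 44 genes of the extracellular matrix, the protein scaffold between cells, out of the 48709 genes in the count files. They were taken by symbol as collagens, laminins, nidogens, fibronectin, proteoglycans and other matrix proteins. All 44 are annotated as protein coding, on 17 chromosomes. They were parted into 19 genes of meningeal and fibroblast matrix, 16 genes of vascular and basement membrane matrix and 9 genes of neural matrix. Every member passed the filter on low counts (5 counts or more in 50% of libraries or more), as did 19297 genes in all.

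PolyA RNA from the CA1 region of the hippocampus of 7-month-old mice was sequenced as single-end reads of 50 nt, with 1 library per animal. The mice fell into 3 groups, and in each of them lipid nanoparticles carrying RNA oligonucleotides were injected into the dorsal hippocampus on both sides. WT control (n = 6) were wild-type littermates given a control oligonucleotide. APP control (n = 6) were APPPS1-21 mice, which carry mutant human APP driven in neurons by Thy1 regulatory sequence and deposit amyloid, given the same control. APP anti-miR-mix (n = 7) were APPPS1-21 mice given inhibitors of 3 microRNAs (miR-146a-5p, miR-148a-3p and also miR-181a-5p) together. The comparison of APP control with WT control is called the transgene comparison below, that of APP anti-miR-mix with APP control the inhibitor comparison, and that of APP anti-miR-mix with WT control the combined comparison. The sample titles of WT control name the mixture beside the word control, and the study's description of a control oligonucleotide was followed. The study reports both sexes in the behavioural groups of this experiment. The sex of each library was not among the labels read, and no fit held a term for it.

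The matrix of the brain differs from that of other organs. Fibrillar collagens and the small leucine-rich proteoglycans that coat them lie mainly in the meninges, the membranes around the brain, and in fibroblasts along larger vessels. Basement membranes, sheets of collagen IV, laminins, nidogens and perlecan, surround blood vessels and the brain surface. The space between neurons and glia holds instead hyaluronan with lecticans such as brevican, neurocan and aggrecan, link proteins and tenascin-R, which together form perineuronal nets around some interneurons.

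Total counts ranged from 19362343 to 37018917 per library. CA1 was the labelled tissue, and all 6 markers of CA1 pyramidal neurons were tested, with summed normalized counts of 22136 to 36304 per library. Markers of the dentate gyrus, CA3, thalamus and choroid plexus were read as well. The mean centred log2 level of the dentate gyrus markers varied widely in every group. It spanned -1.13 to 1.12 in WT control, -0.54 to 1.11 in APP control and -0.77 to 1.15 in APP anti-miR-mix, and no fit held a term for it. For choroid plexus 2 libraries stood apart (WT control 5 and APP anti-miR-mix 6). Without those 2 libraries, an alternative chosen after seeing the data, 3 members passed the threshold in the transgene comparison and 9 in the combined comparison (4 and 9 with all libraries), beside 857 and 1259 of 19289 genes (908 and 1727 of 19297 with all libraries). Since the tissue was sequenced in bulk, fewer cells of a type and less RNA per cell cannot be told apart.

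In TPM, a level per exon length scaled to a common total, the members spanned levels from 3144 for Sparcl1 to 0.688 for Col8a1, as means over 19 libraries. Neural matrix genes took 4 of the first 5 places. Sparcl1, a secreted glycoprotein of astrocytes that promotes synapse formation, was at 3144 ± 254 TPM (SD, n = 19), above 99.93% of all genes tested. Brevican (Bcan), the lectican most abundant in the adult brain, followed at 348 ± 35.5 TPM, neurocan (Ncan) at 124 ± 12.8 TPM and tenascin-R (Tnr) at 78.8 ± 9.63 TPM. The neural class was not uniform, since aggrecan (Acan), a main lectican of perineuronal nets, was at only 2.54 ± 0.450 TPM and tenascin-C (Tnc) at 4.18 ± 1.13 TPM.

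Sparc, a collagen-binding glycoprotein made by endothelium and glia, was the highest of the vascular class at 400.1 ± 67.1 TPM. The paired chains of collagen IV came next, Col4a2 at 65.7 ± 8.88 TPM and Col4a1 at 44.5 ± 5.86 TPM, close to fibronectin (Fn1) at 43.0 ± 6.00 TPM. Among the laminin chains of the vascular class, Lamb2 (27.9 TPM) and Lamc1 (22.9 TPM) were the highest and Lama4 (2.93 TPM) the lowest. Perlecan (Hspg2, 3.51 TPM) and Col18a1 (2.87 TPM), the core proteins of basement membrane heparan sulfate proteoglycans, were near the bottom of the class.

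The meningeal class was led by decorin (Dcn, 47.5 ± 21.0 TPM), a small leucine-rich proteoglycan, by Col6a1 (40.4 ± 9.82 TPM) and by Col5a1 (26.4 ± 7.83 TPM). The chains of collagen I, the main fibrillar collagen of connective tissue, were lower, with Col1a1 at 4.75 ± 1.71 TPM and Col1a2 at 3.82 ± 2.03 TPM. Col3a1 (1.30 TPM), periostin (Postn, 1.48 TPM), Col6a3 (1.51 TPM) and Col8a1 were the lowest members. Neighbours in this order overlapped in their ranges over libraries, except Sparcl1 with Sparc and Bcan with Ncan. The order also depended on the length used: with the longest transcript in place of the merged exons, 21 of 44 levels moved by more than their SD, the ratio of the 2 levels ran from 0.781 to 1.82, and the largest change of rank was 10 places, while the first 6 genes kept their ranks.

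**Figure D1:**
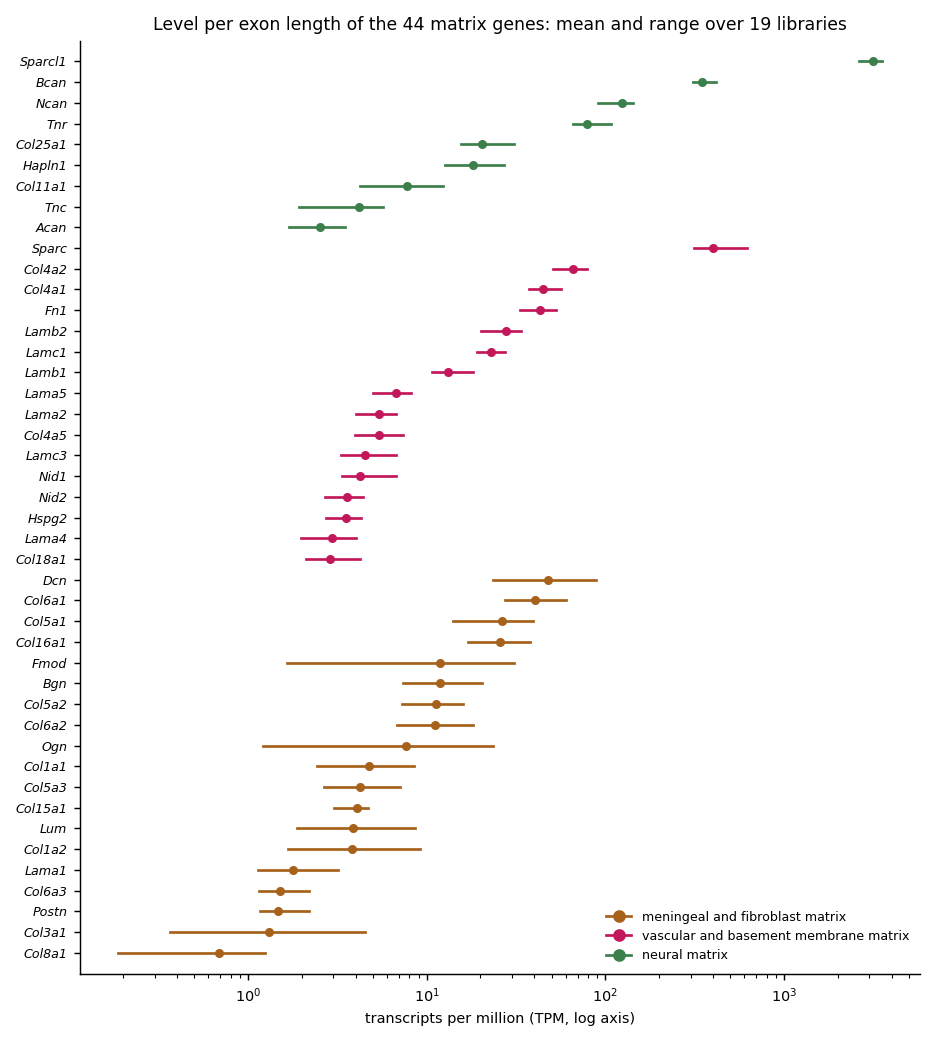
Level of each matrix gene in TPM on a log axis, as the mean (point) and the lowest to highest library (line) over 19 libraries, coloured by matrix class. Sparcl1 stands highest at 3144 TPM and Col8a1 lowest at 0.688 TPM, and Fmod, Ogn and Col3a1 have some of the widest lines.

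The classes differed in how much they varied between animals of one group. The median SD within groups, on the log2 scale of normalized counts, was 0.379 for the meningeal class, 0.172 for the vascular class and 0.219 for the neural class, against 0.194 over all genes tested. There were 6 meningeal genes that differed more than 4-fold between the lowest and the highest library of a group. The widest ranges were those of osteoglycin (Ogn) and fibromodulin (Fmod), small leucine-rich proteoglycans of collagen-rich tissue, which spanned 19.5-fold and 14.9-fold within APP control.

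The lowest, median and highest libraries for Fmod held 40.0, 77.9 and 242 in WT control, 47.8, 145 and 711 in APP control and 220.3, 444 and 645 with APP anti-miR-mix (normalized counts, as for all libraries below). For Ogn they held 24.5, 34.5 and 108 in WT control, 21.6, 104 and 422 in APP control and 93.0, 132 and 384 with APP anti-miR-mix. For Col1a2 they held 155, 185 and 287 in WT control, 150.1, 259 and 790.3 in APP control and 253, 473 and 559 with APP anti-miR-mix. In all 3 genes the lowest APP control library lay within or below the range of WT control, and the highest, APP control 3 each time, lay above every APP anti-miR-mix library.

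The remaining 3 of these 6 genes were lower in counts. Col3a1, a fibrillar collagen chain, held 26.3, 55.6 and 162 in WT control, 33.1, 64.5 and 159 in APP control and 65.4, 79.7 and 306 with APP anti-miR-mix. Lumican (Lum), another small leucine-rich proteoglycan, held 31.7, 48.4 and 63.5 in WT control, 35.2, 59.5 and 148 in APP control and 48.8, 67.1 and 145 with APP anti-miR-mix. Col8a1, a short-chain collagen of vessel walls, held 12.1, 34.8 and 53.8 in WT control, 10.2, 30.2 and 47.8 in APP control and 32.1, 47.0 and 68.9 with APP anti-miR-mix. The groups overlapped for each of them, and none passed the threshold in any comparison.

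The RefSeq promoters of the 3 genes with the widest shared swings, Fmod, Ogn and Col1a2, are shown because these genes moved together between libraries (250 bases before to 50 after the start, GRCm38.p6). Capitals mark the TATA box (TATAAA), the CCAAT box and the GC box (GGGCGG) on either strand. The Fmod window is chr1:134037004-134037303 on the plus strand, that of Ogn chr13:49607765-49608064 on the plus strand and that of Col1a2 chr6:4505368-4505667 on the plus strand.
Fmod: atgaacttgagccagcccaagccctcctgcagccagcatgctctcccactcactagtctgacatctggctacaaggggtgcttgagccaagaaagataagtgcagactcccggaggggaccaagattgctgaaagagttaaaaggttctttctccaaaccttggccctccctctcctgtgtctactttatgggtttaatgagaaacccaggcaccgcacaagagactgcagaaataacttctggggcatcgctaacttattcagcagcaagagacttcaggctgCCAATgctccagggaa
Ogn: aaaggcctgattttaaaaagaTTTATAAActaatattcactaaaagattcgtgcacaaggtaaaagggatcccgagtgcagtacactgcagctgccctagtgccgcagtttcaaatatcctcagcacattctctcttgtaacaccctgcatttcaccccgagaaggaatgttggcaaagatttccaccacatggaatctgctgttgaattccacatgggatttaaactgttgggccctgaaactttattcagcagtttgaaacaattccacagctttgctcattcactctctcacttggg
Col1a2: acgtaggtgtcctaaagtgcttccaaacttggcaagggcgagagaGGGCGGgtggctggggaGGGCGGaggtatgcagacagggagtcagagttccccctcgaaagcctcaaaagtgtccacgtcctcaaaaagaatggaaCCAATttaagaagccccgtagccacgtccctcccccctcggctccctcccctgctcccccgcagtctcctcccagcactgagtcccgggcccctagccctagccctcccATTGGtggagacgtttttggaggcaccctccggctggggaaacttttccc
The marked letters in Fmod are 1 CCAAT. In Ogn they are TATAAA on both strands, overlapping. In Col1a2 they are 2 CCAAT and 2 GGGCGG matches, counting both strands. Of 33 members with a promoter in the table, 4 held a TATA box, 15 a CCAAT box and 22 a GC box, against 14.2%, 37.9% and 35.9% of 27025 promoters. Fmod had a GC content of 51.0%, Ogn of 42.3% and Col1a2 of 61.0%, and the median was 58.8% for 14 meningeal genes and 52.7% for all promoters. A match to these letters is a description and not evidence of binding.

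The transgene comparison asks what differs between the transgenic strain, with its amyloid, and wild-type littermates. Of 44 members, 4 passed the DESeq2 threshold (adjusted p under 0.05), 3 higher and 1 lower in APP control. That is 9.09% of members, where 4.71% of all genes tested were called, 3.66% higher and 1.05% lower. The calls were the minor fibrillar chain Col5a3, the laminin chain Lamb2 and Sparc, which were higher, and fibronectin, which was lower. In the same comparison 2 of 15 meninges markers, none of them a member, were higher. The median log2 fold change was 0.19 in the meningeal class, 0.028 in the vascular class and -0.13 in the neural class, against -0.01 over all genes.

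Col5a3, a chain of collagen V, held 125, 168 and 203 in WT control, 197, 218 and 338 in APP control and 149, 205 and 243 with APP anti-miR-mix. Its log2 fold change was 0.58 (SE 0.17, DESeq2 adjusted p = 0.0142), and 4 of 6 APP control libraries lay above all of WT control. It was the single meningeal call of 19, and 14 of the 19 had a positive fold change. The call was lost without WT control 2 (0.51, DESeq2 adjusted p = 0.055), WT control 6 (0.52, 0.061), APP control 2 (0.47, 0.08) or APP control 5 (0.49, 0.06), and in edgeR (adjusted p = 0.0556).

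Sparc held 8269, 9012 and 10006 in WT control, 9185, 10997 and 16610.2 in APP control and 10357, 11169 and 11767 with APP anti-miR-mix. It changed by 0.36 (SE 0.10, DESeq2 adjusted p = 0.013) on the log2 scale, with 5 of 6 APP control libraries above all of WT control. No single library left out ended the Sparc call (log2 fold change 0.23 to 0.42), but it was lost with only these 2 groups in the fit (0.36, DESeq2 adjusted p = 0.0687). Lamb2, the laminin beta2 chain of vascular and neuromuscular basement membranes, held 893, 1054 and 1187 in WT control, 1049, 1218 and 1424 in APP control and 1241, 1268 and 1385 with APP anti-miR-mix. The log2 fold change of Lamb2 was 0.23 (SE 0.071, DESeq2 adjusted p = 0.0291), with 4 of 6 APP control libraries above all of WT control. The Lamb2 call was lost without WT control 2 (0.23, DESeq2 adjusted p = 0.065), WT control 5 (0.22, 0.066), WT control 6 (0.19, 0.11), APP control 2 (0.23, 0.068), APP control 3 (0.18, 0.12) or APP control 5 (0.22, 0.071). It was also lost in edgeR (adjusted p = 0.0617) and with only these 2 groups in the fit (0.23, DESeq2 adjusted p = 0.121), and passed in 18 of 31 alternative fits.

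Fibronectin, a glycoprotein that links collagens to integrins and is made in the brain chiefly by vessels, held 3155, 3774 and 4235 in WT control, 2720.1, 2964 and 3587 in APP control and 3437, 3915 and 4077 with APP anti-miR-mix. Fn1 fell in APP control, with a log2 fold change of -0.28 (SE 0.077, DESeq2 adjusted p = 0.00807), with 4 of 6 APP control libraries below all of WT control. The call held without each of the 19 libraries (log2 fold change -0.33 to -0.24) and in edgeR (adjusted p = 0.0348), but was lost in limma on the deposited log2 table (-0.25, adjusted p = 0.0646). Exons of Fn1 overlap those of Apol7d, and the strand setting of the counting was not stated.

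The other 13 vascular genes did not pass, with log2 fold changes from -0.17 (Col4a2) to 0.31 (Col18a1). None of the 9 neural genes passed in DESeq2 or edgeR, although all 9 had a negative fold change, and 1 of them had an unadjusted p under 0.05. That gene was neurocan at -0.21 (SE 0.075, DESeq2 adjusted p = 0.0917). It passed in 4 of 31 alternative fits, among them those without WT control 1 (-0.23, DESeq2 adjusted p = 0.0493) or APP control 1 (-0.25, 0.0162) and with the choroid plexus score as a term (-0.22, 0.0464). Neurocan held 6261, 6813 and 7179 in WT control, 4628, 6035 and 6819 in APP control and 5716, 6236 and 6874 with APP anti-miR-mix, and the ranges overlapped.

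The most abundant neural genes had small and narrowly bounded fold changes. Brevican held 9288, 10275 and 11774 in WT control, 8831, 9588 and 10484 in APP control and 9063, 9499 and 10929 with APP anti-miR-mix, with a log2 fold change of -0.11 and a 95% interval of -0.25 to 0.025. Sparcl1 held 55625, 66625 and 72108 in WT control, 59879, 63399 and 67263 in APP control and 59107, 67034 and 69341 with APP anti-miR-mix, with a log2 fold change of -0.047 and an interval of -0.16 to 0.069.

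The collagen IV chains, which form the network of all basement membranes, did not pass the DESeq2 threshold in any of the 3 comparisons. Col4a1 held 2156, 2433 and 2959 in WT control, 2023, 2338 and 2593 in APP control and 1972, 2198 and 2593 with APP anti-miR-mix, with a log2 fold change of -0.11 in the transgene comparison. Col4a2 held 2903, 3359 and 3743 in WT control, 2524, 2854 and 3621 in APP control and 2409.8, 3054 and 3305 with APP anti-miR-mix, with a log2 fold change of -0.17 in the same comparison. The groups overlapped for both chains. In the combined comparison Col4a2 stood at -0.20 (DESeq2 adjusted p = 0.166), and it passed in 3 of 31 alternatives, among them the adjustment number as a factor and limma on the deposited log2 table.

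**Figure D2:**
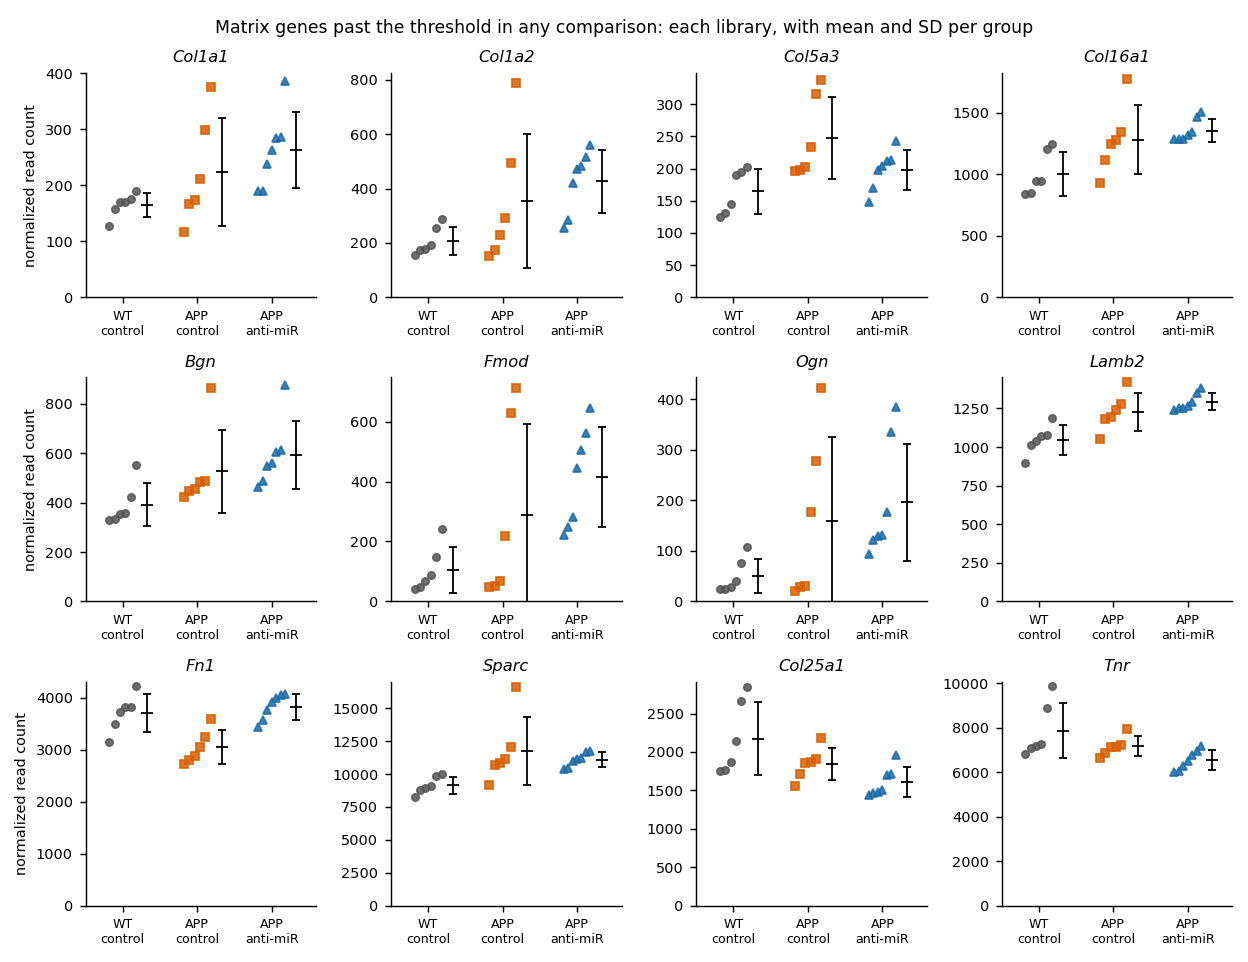
Normalized read counts of the members past the threshold in any comparison, 1 point per library, with the mean and SD per group and axes from 0 (for Fmod and Ogn in APP control the SD exceeds the mean, and the bar is cut at 0). The mean of Fn1 is lowest in APP control, Col16a1 and Lamb2 in APP anti-miR-mix lie above every WT control library, and Fmod and Ogn are spread widest in APP control.

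The inhibitor comparison asks what the inhibitors change in the transgenic mice. No member passed the DESeq2 threshold, as was true of all genes tested (0% called, 0% higher and 0% lower). In DESeq2 3 members and 552 of 19297 genes had an unadjusted p under 0.05, and edgeR called 0 genes, with 2 members and 572 genes at that unadjusted level. The median log2 fold change was 0.17 in the meningeal class, -0.04 in the vascular class and 0.04 in the neural class, against -0.00 over all genes.

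Fibronectin had the smallest p among the members. Its libraries, listed above, lay at 3437 to 4077 in APP anti-miR-mix and at 2720 to 3587 in APP control, and the ranges overlapped through APP control 5. The log2 fold change was 0.33 (SE 0.074, DESeq2 adjusted p = 0.0892), with an unadjusted p of 9.25e-06 and a 95% interval of 0.18 to 0.47, and the edgeR adjusted p was 0.983. Fn1 passed in 6 of 31 alternative fits. Among them were the fit of only these 2 groups (0.33, DESeq2 adjusted p = 0.0248) and those without WT control 3 (0.33, 0.0426), WT control 4 (0.33, 0.00914) and APP control 5 (0.38, 0.0012). It also passed without the 2 libraries of highest meninges score (0.42, DESeq2 adjusted p = 0.000199), an alternative chosen after seeing the data. Those are APP control 3 and APP control 5, the 2 highest APP control libraries for Fn1 (3250 and 3587). A larger fold change follows from leaving them out, so that fit is no separate support. In the combined comparison the log2 fold change was 0.045, with an interval of -0.10 to 0.19. The inhibitor and combined comparisons share the 7 APP anti-miR-mix libraries, and each shares its control libraries with the transgene comparison, so their values for Fn1 are not independent of each other.

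The next 4 members by unadjusted p were Col5a1, Col5a3, Tnc and Col8a1. Col5a1, a chain of collagen V, held 852, 1318 and 1775 in WT control, 932, 1420.5 and 1995 in APP control and 1166, 1968 and 2276 with APP anti-miR-mix, with a log2 fold change of 0.40 and an interval of 0.018 to 0.78. Tenascin-C, a glycoprotein of developing and reactive tissue, held 202, 252 and 291 in WT control, 106, 188 and 270.2 in APP control and 138, 278 and 318 with APP anti-miR-mix, with a log2 fold change of 0.39 and an interval of -0.00090 to 0.78. Col5a3 was at -0.32 (-0.63 to -0.0084) and Col8a1 at 0.61 (-0.031 to 1.25). None of the 4 passed after adjustment in DESeq2, and the groups overlapped for each.

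For the meningeal genes with wide ranges the comparison was imprecise. The 95% interval of the log2 fold change was -0.68 to 1.74 for Fmod, -0.96 to 1.55 for Ogn and -0.40 to 0.93 for Col1a2, so that the intervals of Fmod and Ogn included rises of more than 1 log2 unit. For abundant neural genes it was narrow, at -0.053 to 0.17 for Sparcl1 and -0.095 to 0.17 for Bcan.

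The 3 inhibited microRNAs are shown because a direct effect of the mixture on a member would act through them. A microRNA lowers messages that pair with its seed, bases 2 to 8, here in capitals (RefSeq, GRCm38.p6). miR-181a-5p is encoded at chr1:137966468-137966490 and chr2:38852741-38852763 on the plus strand, miR-146a-5p at chr11:43374435-43374456 on the minus strand and miR-148a-3p at chr6:51269829-51269850 on the minus strand.
mmu-miR-181a-5p: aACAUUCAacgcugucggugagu
mmu-miR-146a-5p: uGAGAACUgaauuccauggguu
mmu-miR-148a-3p: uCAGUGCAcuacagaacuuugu
The 3 seeds differ. The letters that pair with them (TGAATGT for miR-181a-5p, AGTTCTC for miR-146a-5p, TGCACTG for miR-148a-3p) were searched on the message strand of the longest 3′UTR of each gene (GENCODE M21, GRCm38). TGAATGT was found in 7 of 44 members (15.9%) against 18.1% of 15397 genes tested with a 3′UTR. AGTTCTC was found in 3 members (6.82% against 12.4%) and TGCACTG in 6 members (13.6% against 14.9%). Median 3′UTR length was 962.5 bases in members and 1161 bases in all.

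In all, 11 members held 17 matches. Tenascin-R had the most, with 4 matches covering all 3 microRNAs, and Col4a1, Col5a2 and Col6a2 had 2 each. The matches of the members called in other comparisons, Col16a1, Tnr and Col25a1, are shown with the match in capitals, on the plus strand. Col16a1 has its site at chr4:130099152-130099181 and Col25a1 at chr3:130595885-130595914. The Tnr sites shown are those for miR-181a-5p at chr1:159930509-159930538, for miR-146a-5p at chr1:159927239-159927268 and for miR-148a-3p at chr1:159928138-159928167.
Col16a1, miR-181a-5p: gactctgatgggttgTGAATGTttgtgcta
Col25a1, miR-148a-3p: ccggttcagcactccTGCACTGtcttccat
Tnr, miR-181a-5p: aatgcaaatatcctgTGAATGTctaggcta
Tnr, miR-146a-5p: attgtttctatactgAGTTCTCatcttccc
Tnr, miR-148a-3p: ttacatcctactgtcTGCACTGaaatactc
In the inhibitor comparison, 4 of the 11 members with a match had a positive fold change, with a median log2 fold change of -0.01. Of the 33 without a match, 22 were positive, with a median of 0.06. Over all genes the median was -0.00 both for 5376 genes with a match and for 10021 without. Tnr, with 4 matches, was at -0.13 with an interval of -0.29 to 0.028, and Fn1 held no match.

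The combined comparison sets treated transgenic mice beside wild-type mice, so transgene and inhibitors differ together. Of 44 members, 9 passed the DESeq2 threshold, 7 higher and 2 lower in APP anti-miR-mix. That is 20.5% of members, where 8.95% of all genes tested were called, 5.59% higher and 3.36% lower. The higher genes were 6 of 19 meningeal genes (Col1a1, Col1a2, Col16a1, Bgn, Fmod and Ogn) and 1 of 16 vascular genes (Lamb2), and the lower genes were 2 of 9 neural genes (Col25a1 and Tnr). The median log2 fold change was 0.53, 0.0495 and -0.13 in the meningeal, vascular and neural classes, against -0.02 over all genes. In edgeR 4 of the 9 passed (Col16a1, Bgn, Lamb2 and Col25a1). In this comparison 9 of 15 meninges markers, none of them a member, were also higher, and the values with their score as a term are given below.

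Fmod rose most, with a log2 fold change of 1.98 (SE 0.62, DESeq2 adjusted p = 0.0207), and Ogn followed at 1.95 (SE 0.64, DESeq2 adjusted p = 0.0308). In both genes 6 of 7 APP anti-miR-mix libraries lay above all of WT control. In the transgene comparison, which shares WT control, Fmod stood at 1.45 (SE 0.64, DESeq2 adjusted p = 0.229) and Ogn at 1.66 (SE 0.67, 0.155). In the inhibitor comparison they stood at 0.53 (SE 0.62) and 0.29 (SE 0.64). The Fmod call was lost without WT control 4 (1.83, DESeq2 adjusted p = 0.07) or WT control 6 (1.81, 0.069). The Ogn call was lost without WT control 1 (1.81, 0.066), WT control 2 (1.84, 0.076), WT control 4 (1.90, 0.08), WT control 6 (1.82, 0.092), APP anti-miR-mix 4 (1.70, 0.095) or APP anti-miR-mix 7 (1.77, 0.081).

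The collagen I chains both rose. Col1a1 held 127, 169.8 and 189 in WT control, 116, 193 and 376 in APP control and 189, 263 and 387 with APP anti-miR-mix, and its log2 fold change was 0.67 (SE 0.22, DESeq2 adjusted p = 0.027). Col1a2 changed by 1.04 (SE 0.34, DESeq2 adjusted p = 0.0293). Of 7 APP anti-miR-mix libraries, 6 for Col1a1 and 5 for Col1a2 lay above all of WT control. The Col1a1 call was lost without WT control 4 (0.68, DESeq2 adjusted p = 0.053), WT control 5 (0.66, 0.051), WT control 6 (0.61, 0.091), APP anti-miR-mix 3 (0.55, 0.089) or APP anti-miR-mix 4 (0.65, 0.054). That of Col1a2 was lost without WT control 1, 2, 4 or 6 or APP anti-miR-mix 1, 2, 4 or 7, with log2 fold changes of 0.97 to 1.02 and DESeq2 adjusted p of 0.052 to 0.089. The deposited table carries an adjustment by an unexplained number per library. With that number as a factor in the fit, Fmod (1.80, DESeq2 adjusted p = 0.0721), Ogn (1.63, 0.0811), Col1a1 (0.62, 0.0735) and Col1a2 (0.96, 0.117) did not pass.

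Biglycan (Bgn), a small leucine-rich proteoglycan of meninges and vessels, held 328, 356 and 554 in WT control, 423, 469 and 864 in APP control and 462, 559 and 878 with APP anti-miR-mix. Its log2 fold change was 0.60 (SE 0.18, DESeq2 adjusted p = 0.0125), and no library left out ended the call. Col16a1, a collagen that associates with fibrils, held 839.8, 945 and 1247 in WT control, 928, 1266 and 1774 in APP control and 1283, 1317 and 1509 with APP anti-miR-mix. Col16a1 rose, with a log2 fold change of 0.43 (SE 0.12, DESeq2 adjusted p = 0.00903), the ranges of the groups did not overlap, and the call held in all 31 alternative fits. In the transgene comparison Col16a1 stood at 0.35 (DESeq2 adjusted p = 0.0947) and passed in 6 of 31 alternative fits, 3 of them without a single library, WT control 1 (0.42, 0.0198), WT control 3 (0.41, 0.0454) or APP control 5 (0.43, 0.0106).

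Lamb2 had the smallest p of the members, with a log2 fold change of 0.30 (SE 0.068, DESeq2 adjusted p = 0.000362). The ranges did not overlap, and no library left out ended the call. Sparc narrowly missed the threshold, at 0.28 (SE 0.10, DESeq2 adjusted p = 0.0503), although every APP anti-miR-mix library lay above all of WT control. It passed in 9 of 31 alternative fits. Sparc, Lamb2 and Col16a1 were the 3 members whose groups did not overlap in this comparison, 6.82% of members, where the groups did not overlap in 3.42% of all genes tested. In the transgene comparison 0 of 44 members had groups that did not overlap, beside 1.57% of all genes tested, and in the inhibitor comparison 0 of 44, beside 0.0207%.

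Col25a1, a transmembrane collagen of neurons whose shed part binds amyloid, held 1749, 2001 and 2844 in WT control, 1557, 1863 and 2177 in APP control and 1435, 1509 and 1959 with APP anti-miR-mix. Its log2 fold change was -0.43 (SE 0.12, DESeq2 adjusted p = 0.00563), and 6 of 7 APP anti-miR-mix libraries lay below all of WT control. Tenascin-R, a glycoprotein made by oligodendrocytes and some neurons, held 6833, 7229.6 and 9886 in WT control, 6629, 7138 and 7962 in APP control and 6021, 6492 and 7162 with APP anti-miR-mix. Tnr fell, with a log2 fold change of -0.27 (SE 0.082, DESeq2 adjusted p = 0.0177), with 5 of 7 libraries below all of WT control. The Tnr call was lost without WT control 4 (-0.19, DESeq2 adjusted p = 0.079), WT control 6 (-0.23, 0.082), APP anti-miR-mix 1 (-0.25, 0.0504) or APP anti-miR-mix 6 (-0.25, 0.053). Exons of Tnr overlap those of Gm38039.

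The remaining neural genes did not pass. Their log2 fold changes ran from -0.36 for Col11a1, a fibrillar chain also found in neurons, to 0.012 for Sparcl1. Decorin, the most abundant meningeal gene, held 939, 1876 and 3467 in WT control, 1062, 1863 and 2411 in APP control and 1051, 1399.9 and 3678 with APP anti-miR-mix. Its log2 fold change of -0.13 had an interval of -0.82 to 0.56. Col6a1 held 878, 1307 and 1502 in WT control, 855, 1341 and 1655 in APP control and 966, 1011 and 1799 with APP anti-miR-mix and had a log2 fold change of -0.085. The 2 most abundant meningeal genes were thus not among those that rose.

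**Figure D3:**
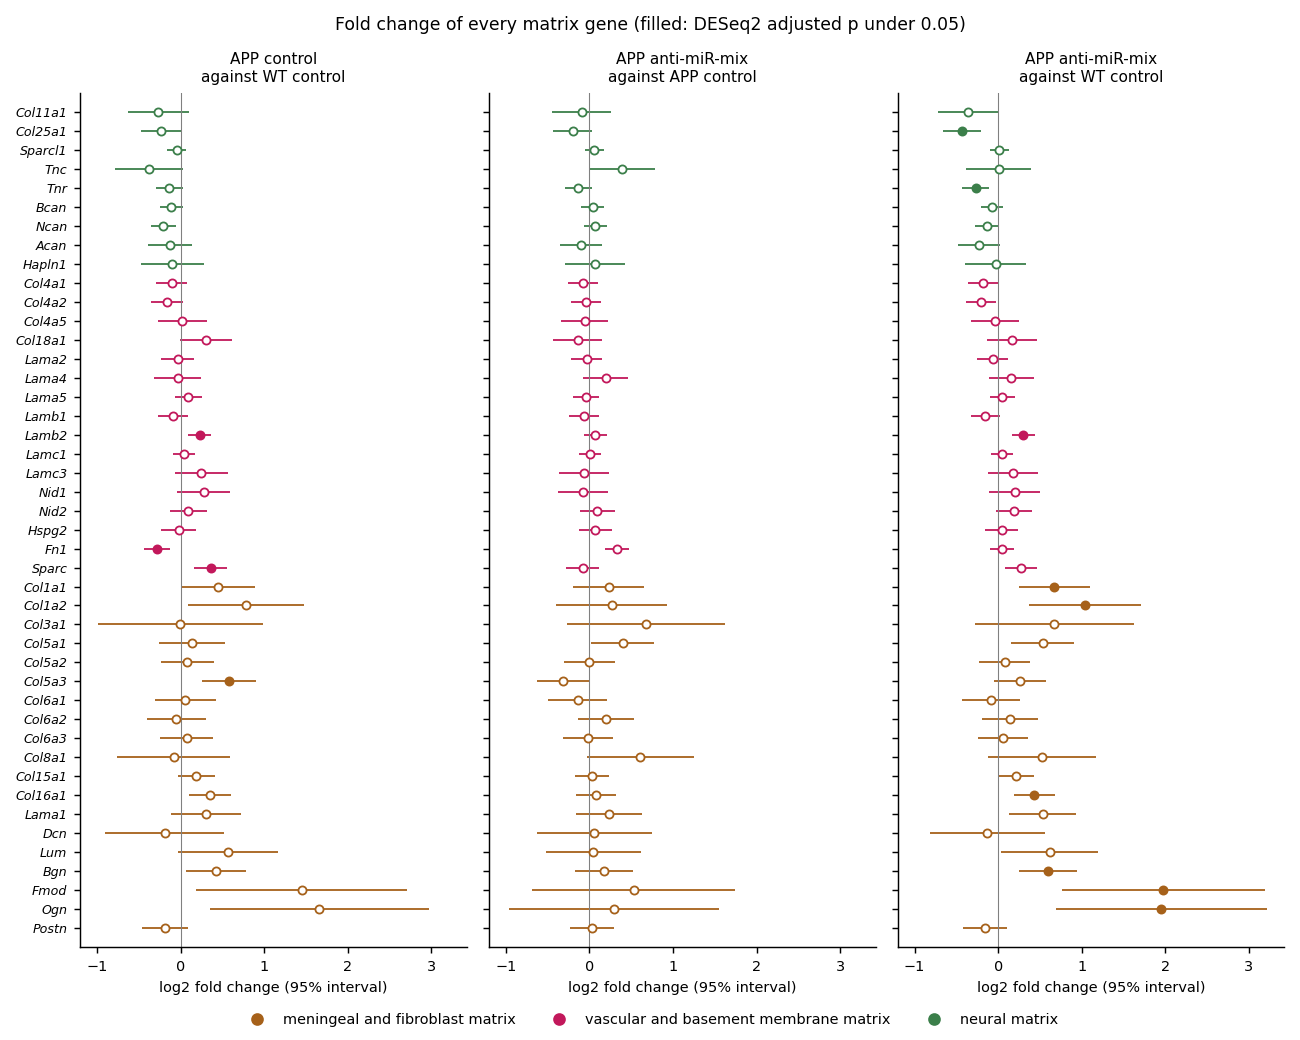
Log2 fold change of each matrix gene with its 95% interval in the 3 comparisons, coloured by matrix class, with filled points for DESeq2 adjusted p under 0.05. Filled points number 4, 0 and 9, and the widest intervals belong to Fmod and Ogn in each panel.

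Because the meningeal class holds genes of the brain's coverings, a separate list of 15 meninges markers with no members was read beside it. All 15 were tested and none was at 0 in every library. In DESeq2 2 of the 15 were higher in the transgene comparison, 0 in the inhibitor comparison and 9 in the combined comparison, with median log2 fold changes of 0.91, 0.22 and 1.08. In edgeR the counts were 0, 0 and 6, and at an unadjusted p under 0.05 they were 10, 0 and 12 in either tool. Their summed counts spanned 2137 to 3369 for WT control, 2107 to 7848 for APP control and 3523 to 6489 for APP anti-miR-mix. WT control and APP anti-miR-mix did not overlap, and APP control spanned both. Whether more meningeal tissue was present in the dissected samples, or more of these RNAs per cell, cannot be told apart from these values.

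A score was formed as the mean over a list of log2(normalized count + 1), centred per gene. The meninges marker score spanned -1.04 to -0.13 for WT control, -0.99 to 1.27 for APP control and 0.016 to 0.97 for APP anti-miR-mix. The score of the meningeal matrix class followed it with r = 0.946 (rho = 0.926) over 19 libraries, and with r = 0.648, 0.966 and 0.909 within WT control, APP control and APP anti-miR-mix. For the vascular class r was 0.628 over all libraries and 0.566 over deviations from group means, with 0.0851, 0.708 and 0.576 within the groups in the same order. For the neural class r was -0.504 over all libraries and -0.221 over deviations, with -0.0416, -0.176 and -0.584 within the groups. These are descriptions over libraries that share 1 normalization and carry no p.

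**Figure D4:**
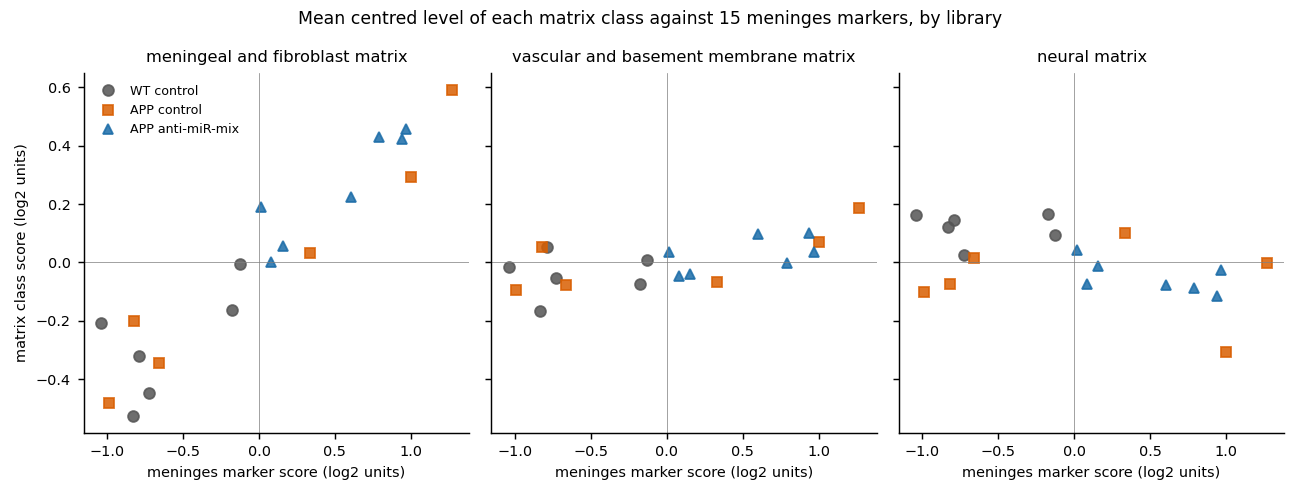
Score of each matrix class (log2 units, mean of centred log2 normalized counts) against the score of 15 meninges markers that hold no member, 1 point per library, by group. The meningeal class climbs with the markers (r = 0.946), APP control 3 lies at the upper end (1.27) and WT control libraries lie below 0.

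Taken as deviations from group means, single members were compared with 12 marker lists, 528 relations in all. Of these, 16 passed a permutation test with Benjamini-Hochberg adjustment on r, 12 of them on rho as well. Fmod followed the meninges markers most closely (r = 0.972, rho = 0.971, permutation adjusted p = 0.00264 and 0.00528, r = 0.964 without the 2 libraries farthest from the median). Ogn (r = 0.947, rho = 0.914, adjusted p = 0.00352 and 0.0066, 0.947 without 2 libraries) and Col1a2 (r = 0.918, rho = 0.89, adjusted p = 0.00396 and 0.0066, 0.896 without 2 libraries) did likewise. Within the single groups r was 0.773 to 0.997 for these 3 genes.

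The label of the class did not hold for all of its genes. Of 19 meningeal genes, 7 had r over 0.5 with the meninges markers, as did 4 of 16 vascular genes and 0 of 9 neural genes. Lama1, the laminin alpha1 chain of the pial basement membrane, was among them (r = 0.729, rho = 0.767, permutation adjusted p = 0.0116 and 0.0137, 0.636 without 2 libraries). Decorin (0.223), Col6a1 (0.194) and periostin (0.027) were near 0, and Col16a1 (-0.275), Col15a1 (-0.339), Col5a2 (-0.414) and Col5a3 (-0.171) were negative. None of these 7 passed the permutation test, and Col5a3 and Col16a1, called above, are among them.

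Of the vascular genes, nidogen-1 (Nid1), which bridges laminin and collagen IV, followed both the meninges markers (r = 0.855, rho = 0.785, permutation adjusted p = 0.0158 and 0.0977, 0.824 without 2 libraries) and the mural cell markers (r = 0.813, rho = 0.815, 0.0352 and 0.0278, 0.681 without 2 libraries). Fn1, which was lower in APP control, also had a positive r with the meninges markers, but it did not pass (r = 0.617, rho = 0.555, 0.159 and 0.286, 0.611 without 2 libraries). Lamb2 followed the mural cell markers (r = 0.646, rho = 0.65, 0.0445 and 0.13, 0.554 without 2 libraries). Lamb1 ran against the astrocyte markers (r = -0.801, rho = -0.843, 0.00264 and 0.0066, -0.785 without 2 libraries) and Col4a5 ran with them (r = 0.782, rho = 0.758, 0.0151 and 0.0392, 0.769 without 2 libraries). Col15a1, grouped as meningeal, followed instead the markers of the amyloid response of glia (r = 0.805, rho = 0.804, 0.0151 and 0.0269, 0.808 without 2 libraries). The cell type in which any of these RNAs arose was not measured.

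**Figure D5:**
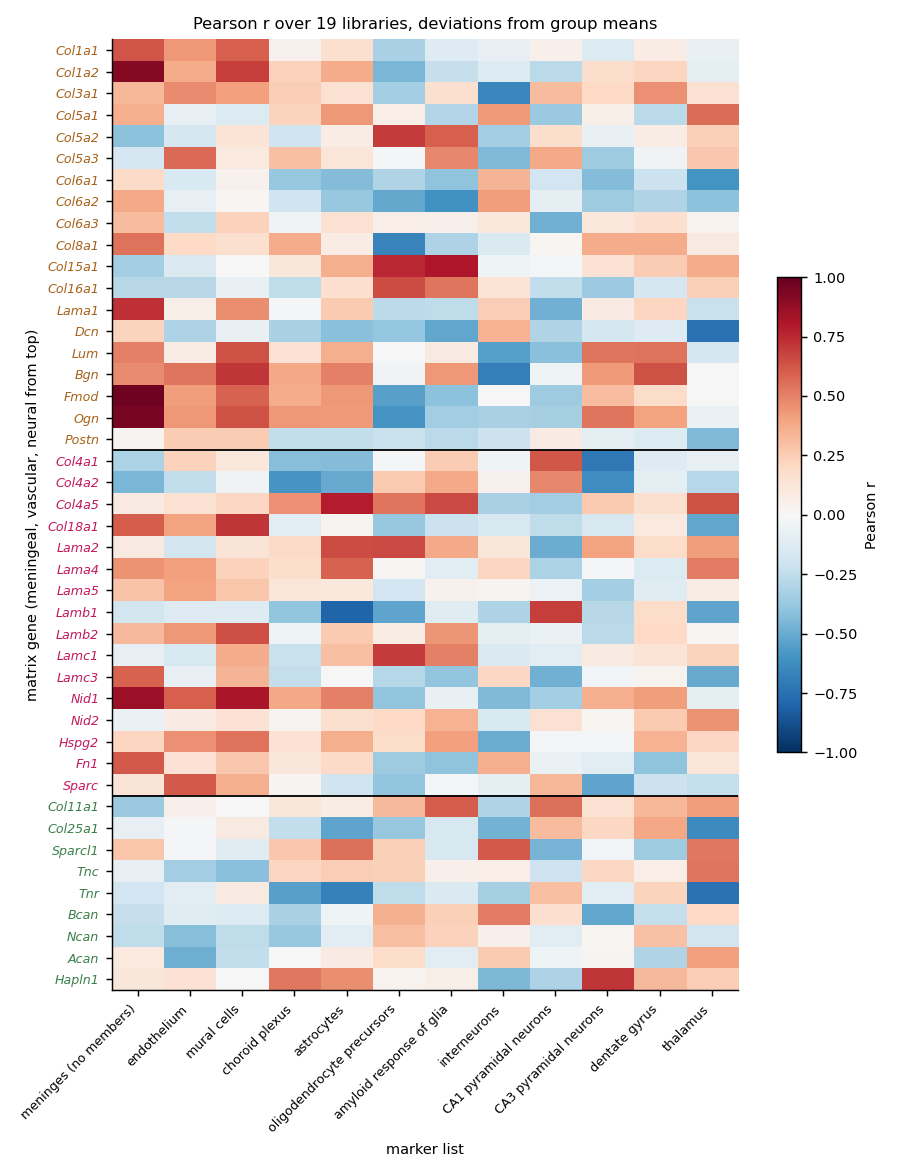
Pearson r between each matrix gene (rows by class, meningeal, vascular and neural from the top) and the score of each of 12 marker lists (columns), from deviations from group means over 19 libraries. Fmod (0.972), Ogn (0.947) and Col1a2 (0.918) stand out in the meninges column, and Lamb1 (-0.801) is negative for astrocytes.

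With the meninges score as a term in the DESeq2 fit, the median log2 fold change of the meningeal class in the combined comparison went from 0.53 to 0.0497. Of the 9 calls, Col16a1 alone passed (0.54, DESeq2 adjusted p = 0.0144). Fmod was then at 0.0497, Col1a2 at 0.056, Ogn at -0.12, Col1a1 at 0.24 and Bgn at 0.29. Lamb2 (0.23, adjusted p = 0.0903), Col25a1 (-0.39, 0.135) and Tnr (-0.21, 0.309) moved less and did not pass either. As the scores of these 2 groups did not overlap, group and meninges score cannot be told apart in this comparison.

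In the transgene comparison, where the scores overlapped, Fn1 (-0.37) and Col5a3 (0.62) passed with the meninges term, and Lamb2 (0.19) and Sparc (0.32) did not. Without the 2 libraries of highest meninges score, APP control 3 and APP control 5, an alternative chosen after seeing the data, the meningeal median of this comparison went from 0.19 to 0.049 and Fmod from 1.45 to -0.12. Col5a3 (0.55, DESeq2 adjusted p = 0.0586) and Lamb2 (0.15, 0.346) then did not pass, and Col16a1 did (0.43, 0.0327). In the inhibitor comparison the meningeal median went from 0.17 to 0.33, and 2 members passed there, Col1a2 (1.02) and Fn1 (0.42, DESeq2 adjusted p = 0.000199), among 9 of 19295 genes. The 2 libraries left out hold the highest APP control counts of both genes, so larger fold changes follow from leaving them out.

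The remaining marker lists were read in the same way. In the transgene, inhibitor and combined comparisons in that order, 2, 0 and 4 of 14 endothelial markers were higher, as were 1, 0 and 3 of 10 mural cell markers and 0, 0 and 1 of 10 astrocyte markers. None of 9 oligodendrocyte precursor markers, 9 tested choroid plexus markers, 5 CA3 markers and 6 dentate gyrus markers passed in any comparison, in DESeq2 or edgeR. At an unadjusted p under 0.05 in DESeq2 the choroid plexus list had 1, 0 and 1 such genes and the CA3 list 1, 2 and 0, and the other 2 lists had 0 in each. Of 8 interneuron markers 3, 0 and 3 were lower, of 6 CA1 markers 0, 0 and 1 were lower, and of 5 tested thalamus markers 1, 0 and 1 were higher. Markers of the amyloid response of glia were higher in 10, 0 and 10 of 12, with median log2 fold changes of 1.82, 0.09 and 1.91. Their part in the matrix results was not tested beyond the correlations above. With an endothelium term, Fn1 was the 1 member that passed in the transgene comparison, and Col16a1 and Lamb2 were the 2 that passed in the combined comparison, beside 460 and 818 of 19297 genes. With that term Sparc went from 0.36 to 0.20 and Col5a3 from 0.58 to 0.36 in the transgene comparison. In the combined comparison Fmod went from 1.98 to 1.52, Ogn from 1.95 to 1.36, Col1a2 from 1.04 to 0.80, Col1a1 from 0.67 to 0.44 and Bgn from 0.60 to 0.34, while Col25a1 stood at -0.43 and Tnr at -0.24.

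Collagen and laminin chains assemble into trimers, so chains of 1 molecule were compared. Over deviations from group means, the closest of all 946 pairs of members was Fmod with Ogn (r = 0.917), where the median pair had r = 0.0872. Col6a1 and Col6a2, chains of collagen VI whose genes lie 85161 bp apart on chromosome 10, had r = 0.892, while the third chain, Col6a3, had r = 0.37 with Col6a1 and 0.372 with Col6a2. Col1a1 and Col1a2, on different chromosomes, had r = 0.833. For collagen V, r was -0.101 for Col5a1 with Col5a2 and -0.251 for Col5a1 with Col5a3. Against the laminin gamma1 chain (Lamc1), r was 0.636 for Lama2, 0.348 for Lamb2, 0.117 for Lama4, -0.192 for Lama5 and -0.29 for Lamb1. Nearness on the chromosome did not go with a close pattern in every case: Dcn and Lum, 46984 bp apart, had r = 0.0267, and Col3a1 and Col5a2, 24614 bp apart, had r = 0.199. These values are descriptions over 19 libraries with no p.

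Col4a1 and Col4a2 had r = 0.784. Their genes are read in opposite directions from a shared start region on chromosome 8, where the annotated genes overlap by 22 bp, so reads of that stretch cannot be assigned without strand. The Col4a2 promoter (chr8:11312555-11312854, plus strand, GRCm38.p6), shown because both chains start within it, held GC boxes and a CCAAT box, in capitals on either strand.
Col4a2: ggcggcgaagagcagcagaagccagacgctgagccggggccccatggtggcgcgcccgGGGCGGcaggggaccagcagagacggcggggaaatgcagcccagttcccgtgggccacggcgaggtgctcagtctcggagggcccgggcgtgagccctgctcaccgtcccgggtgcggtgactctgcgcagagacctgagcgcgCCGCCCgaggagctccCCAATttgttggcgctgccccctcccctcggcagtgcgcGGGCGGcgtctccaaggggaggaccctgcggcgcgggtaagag
The ratio of Col4a1 to Col4a2 in TPM was 0.664 ± 0.046 for WT control (SD, n = 6), 0.699 ± 0.075 for APP control (n = 6) and 0.678 ± 0.036 for APP anti-miR-mix (n = 7). These differed by less than the spread between libraries. Col6a1 over Col6a2 was 3.77 ± 0.35, 4.10 ± 0.65 and 3.22 ± 0.15 in the same order, and the ranges of WT control (3.42 to 4.31) and APP anti-miR-mix (2.98 to 3.36) did not overlap. Lamb1 over Lamb2 was 0.576 ± 0.104, 0.463 ± 0.056 and 0.419 ± 0.040. Col1a1 over Col1a2 was 1.56 ± 0.31, 1.38 ± 0.40 and 1.21 ± 0.29, with ranges that overlapped. No ratio was tested.

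Beyond the members, 151 genes of 5 lists gave the setting of the matrix, and 149 were tested. In the transgene comparison 19 were higher and 1 lower (13.4%, against 4.71% of all genes). In the inhibitor comparison none passed in DESeq2 or edgeR, and 8 had an unadjusted p under 0.05. In the combined comparison 26 were higher and 3 lower (19.5%, against 8.95%). By list, the counts of higher genes in the transgene and combined comparisons were 4 and 7 of 55 other matrix proteins (1 and 2 lower), 3 and 3 of 24 genes of collagen synthesis and cross-linking, 1 and 2 of 23 proteases and inhibitors (0 and 1 lower), 6 and 9 of 29 receptors and 5 and 5 of 18 genes of transforming growth factor beta signalling. In edgeR 16 and 24 of the 149 passed. These lists were put together with earlier results known, so their shares are descriptions.

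Among other matrix proteins, Smoc1, a calcium-binding basement membrane protein, rose in APP control by 0.57 (SE 0.092, DESeq2 adjusted p = 1.46e-07), and the hyaluronan synthase Has3 fell, at -0.50 (SE 0.11, DESeq2 adjusted p = 0.000557). Smaller changes were those of Prelp, which anchors basement membranes (0.28, SE 0.070, DESeq2 adjusted p = 0.00344), Efemp2, needed for elastic fibres (0.32, SE 0.091, DESeq2 adjusted p = 0.0155), and the fibrillar chain Col27a1 (0.48, SE 0.14, DESeq2 adjusted p = 0.0194). Smoc1 and Has3 passed in all 31 alternative fits, Prelp in 29, and Efemp2 and Col27a1 in 24 each.

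Of collagen synthesis and cross-linking, lysyl oxidase (Lox), which cross-links collagen and elastin, rose by 1.81 (SE 0.34, DESeq2 adjusted p = 1.25e-05) in the transgene comparison and by 2.20 (SE 0.33, DESeq2 adjusted p = 4.78e-09) in the combined one. Colgalt1, which adds galactose to collagen, rose slightly (0.15, SE 0.038, DESeq2 adjusted p = 0.00346). Adamts14, a procollagen peptidase, was at 1.39 (SE 0.43, DESeq2 adjusted p = 0.0295), with a mean of 41.2 ± 40.7 normalized counts in APP control (SD, n = 6), so that its SD was close to its mean. It passed in 16 of 31 alternative fits, but not in edgeR (adjusted p = 0.102) or with the meninges term (0.93, DESeq2 adjusted p = 0.294). Pcolce, which speeds procollagen processing, was called against WT control in APP anti-miR-mix alone (0.77, SE 0.25, DESeq2 adjusted p = 0.024), and had a log2 fold change of 0.0092 with the meninges term. It passed in 22 of 31 alternative fits, but not in edgeR (adjusted p = 0.0686).

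Matrix receptors and growth factor signalling also held calls. The collagen uptake receptor Mrc2 rose by 1.41 (SE 0.18, DESeq2 adjusted p = 3.38e-12) in APP control, and the integrin chains Itgb3, Itga5 and Itgb5 by 1.08 (SE 0.15, DESeq2 adjusted p = 8.01e-10), 0.80 (SE 0.14, DESeq2 adjusted p = 2.37e-06) and 0.82 (SE 0.17, DESeq2 adjusted p = 6.54e-05). In transforming growth factor beta signalling, a main inducer of matrix genes, the receptor Tgfbr2 rose by 1.27 (SE 0.16, DESeq2 adjusted p = 1.94e-12), the ligand Tgfb1 by 1.09 (SE 0.18, DESeq2 adjusted p = 1.62e-07) and Nrros, which holds latent ligand on microglia, by 0.65 (SE 0.14, DESeq2 adjusted p = 0.000155). These 7 genes and the syndecan Sdc4 (log2 fold change 0.32, DESeq2 adjusted p = 0.000446) passed in all 31 alternative fits, the meninges term included. The receptor Tgfbr1 (0.68, 0.00733) passed in 30 of 31, and Ccn1 (0.53, 0.0367), a matrix-associated signalling protein, in 21 of 31 and not in edgeR (adjusted p = 0.0907). Markers of the amyloid response of glia moved in the same comparisons, as given above, and their part was not tested. Of proteases and inhibitors, Serpine2 rose (0.26, SE 0.070, DESeq2 adjusted p = 0.00668), and against WT control Mmp12 was also higher in APP anti-miR-mix (1.42, SE 0.34, DESeq2 adjusted p = 0.000988) and Mmp17 lower (-0.30, SE 0.10, DESeq2 adjusted p = 0.0263). Mmp17 passed in 20 of 31 alternative fits, but not in edgeR (adjusted p = 0.0725) or with the meninges term (-0.17, DESeq2 adjusted p = 0.546).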

How the data were processed

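PolyA RNA of 19 mice was sequenced, 1 library per animal (TruSeq, single-end, 50 nt). The authors checked reads with FastQC (0.11.5), aligned them to mm10 with STAR (2.5.2b) and deposited raw read counts per Ensembl gene from featureCounts (Subread 1.5.1). The annotation release and the strand setting of the counting are not given in the sources used here. The authors also deposited a table of 18825 genes on the log2 scale, which matched log2(CPM + 1) of the counts after removal of a profile that depends on a whole number from 1 to 5 per library (99.9998% of the difference). The meaning of this number is not stated, it is called the adjustment number here, and the table was used with limma (3.58.1) as an alternative only.

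The 44 members and all gene lists were chosen with earlier results of these data known. Identifiers were matched to GENCODE M21 on GRCm38 (48349 of 48709), and 14228 genes had no count in any library. Genes reaching 5 counts in 50% of libraries or more were tested with DESeq2 (1.42.0), all 3 groups in 1 fit, by Wald tests on log2 fold changes without shrinkage and an adjusted p under 0.05 (Benjamini-Hochberg after DESeq2's independent filtering, which gave an adjusted p to 18161 of 19297 genes in both comparisons with WT control, to 19284 in the other and to all 44 members). The tool, the filter and the threshold are those of the study's methods, and the joint fit, the Wald test and the unshrunken fold changes were chosen here. Normalized counts are counts divided by DESeq2 size factors, and TPM were computed from counts and merged exon length. P-values measure the spread between animals. Replicates were compared, and the closest pair within a group (WT control 2 and 3) had a chi-square per gene of 4.94, above sampling noise, so all were kept. Total counts were 19362343 to 37018917 per library, and the lowest count of a member in a library was 8, so counting error is largest for Col8a1. Exons of 12 members overlap another gene.

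Marker lists of 12 cell types and regions and 5 lists of matrix genes were read beside the members. Correlations used 100000 permutations. Members are described by library where they passed in any comparison, were among the 3 highest per length in a class, were among the 5 smallest p in the inhibitor comparison, or spanned over 4-fold within a group with a mean of at least 20 counts. Other listed genes are named where they passed, at most 5 per list and comparison. There were 31 alternative fits per comparison: edgeR (4.0.16), limma, other filters, 2 groups alone, the replicate number as a block, marker scores and the adjustment number as terms, and libraries left out. Fits were tested on simulated data. R (4.3.3), Python (3.11.15), numpy (2.4.6), scipy (1.17.1), pandas (2.3.3) and matplotlib (3.10.9) were used.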

Additional observations from a re-analysis of the deposited data

Results flagged for a closer look

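Single libraries stood apart from the rest of their group, by a gap to the nearest library above the Dixon limit, in 12 of 153 groups examined (44 members and 7 scores in 3 groups), where chance gives about 1 in 20, or 7.65. In APP control, the library APP control 3 held 864 normalized counts of Bgn against 423 to 486 in the others, and 192 of Lama1 against 92.6 to 126. In APP anti-miR-mix, the library APP anti-miR-mix 4 held 878 of Bgn against 462 to 612 and 145 of Lum against 48.8 to 81.3, and APP anti-miR-mix 3 held 306 of Col3a1 against 65.4 to 133. In WT control, the library WT control 4 held 1299.7 of Lamb1 against 840.2 to 954, WT control 1 held 167 of Col6a3 against 103 to 127, and WT control 5 held 232 of Nid1 against 165 to 186.

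Scores of marker lists stood apart in the same way. The mural cell score of WT control 1 was -0.063, while its group otherwise spanned -0.26 to -0.20, and that of APP anti-miR-mix 4 was 0.52, while its group otherwise spanned -0.02 to 0.21. The choroid plexus score was 1.24 in WT control 5, beside -0.61 to 0.07, and 1.08 in APP anti-miR-mix 6, against -0.17 to 0.22. APP anti-miR-mix 4 was thus high for Bgn, Lum and the mural cell markers together.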

How the results depend on the processing

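The count of 4 members in the transgene comparison became 2 in edgeR, 2 with only these groups in the fit, 7 with the replicate number as a block, 2 with the meninges score as a term, 1 with the endothelium score and 1 with the adjustment number as a factor, and ran from 2 to 6 without single libraries. In the inhibitor comparison the count of 0 became 1 with only these groups, 1 with the replicate block and 2 without the 2 libraries of highest meninges score, and ran from 0 to 1 without single libraries. In the combined comparison the count of 9 became 4 in edgeR, 1 with the meninges score, 2 with the endothelium score and 12 with the replicate block, and ran from 4 to 11 without single libraries. There Ogn reversed, to -0.12, with the meninges score. The counts over all genes moved as well. For the transgene comparison 908 became 621 in edgeR, 746 with only these groups, 1222 with the block, and 881, 460 and 874 with the meninges score, the endothelium score and the adjustment number. In the inhibitor comparison 0 became 3, 1 and 9 in the settings named. In the combined comparison 1727 became 1169 in edgeR, 956 and 818 with the meninges and endothelium scores and 2202 with the block. The cause of these changes was not tested. Other filters on low counts and the choroid plexus score as a term left the 3 counts within 1.5 times, and the direction of each of the 13 calls except that of Ogn held in all 31 alternatives. Whether the replicate numbers pair the libraries was not settled. Of 18 pairs with the same number, 6 had correlated deviations above 0.1 (-0.169 to 0.278), and 6 of 19 libraries correlated best with their own number. Within each group the adjustment number never falls as the replicate number rises, and a structure shared by both was not tested. The calls gained with that block were Fn1 (0.33, DESeq2 adjusted p = 0.000635) in the inhibitor comparison, Col16a1 (0.35, 0.0249), Ncan (-0.21, 0.0219) and Bcan (-0.11, 0.0341) in the transgene comparison, and Col5a1 (0.50, 0.00368), Sparc (0.29, 0.0232) and Col4a2 (-0.18, 0.0477) in the combined one. Col8a1, Lum and Col3a1 had few counts and also varied between animals of a group, with an SD within groups of 0.694, 0.543 and 0.849 on the log2 scale. Postn, at counts similar to those of Col3a1, had an SD of 0.226. The part of low counts in their precision was not tested.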

Other observations

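A further 6 relations between members and marker lists passed the permutation test on r after adjustment over 528 relations, over deviations from group means in 19 libraries. Tnr (r = -0.747, rho = -0.795, adjusted p = 0.0445 and 0.0269, r = -0.75 without the 2 libraries farthest from the median) and Dcn (r = -0.745, rho = -0.798, adjusted p = 0.0445 and 0.0269, r = -0.702 without 2 libraries) both ran against the thalamus markers. In that list Gbx2 was at 0 to 1.14 normalized counts and was left out of the score, and the tissue source of its other genes was not tested. Bgn ran against the interneuron markers (r = -0.68, rho = -0.791, 0.0428 and 0.0176, -0.675 without 2 libraries). Lamb1 ran with the CA1 markers (r = 0.688, rho = 0.663, 0.0445 and 0.127, 0.752 without 2 libraries). Hapln1, a link protein of perineuronal nets, ran with the CA3 markers (r = 0.713, rho = 0.593, 0.0445 and 0.212, 0.659 without 2 libraries), and Col4a1 ran against them (r = -0.711, rho = -0.737, 0.0445 and 0.0334, -0.652 without 2 libraries). These are values over libraries that share tissue dissection, and the part of dissection in them was not tested.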
